A study of Mus musculus with 24 samples.

Results

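Astrocytes derived from mouse embryonic stem cells (AGES) were compared with cultured adult astrocytes (AdAC CellC) across all genes outside chromosomes X and Y, with 4 RNA-seq libraries of each. These 8 libraries belong to a series of 24 libraries in 6 groups, which also holds neural stem cells (NSCs), cultured neonatal astrocytes (neoAC CellC) and directly isolated adult (AdAC direct) and neonatal astrocytes. The members of the comparison were all genes of the count table except 2611 on chromosome X, 1570 on chromosome Y and 345 on scaffolds or without a match in the annotation, which left 45145 of 49671 genes. Of these, 18935 had enough counts to be tested.

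The AGES came from C57BL/6N embryonic stem cells of a single line, which had been turned into NSCs, expanded in EGF and FGF to passage 50 to 60 and then given BMP4 at 20 ng/ml for 3 to 5 days on poly-ornithine and laminin. A replicate was an independent culture from another passage. The AdAC CellC came from C57BL/6J mice of mixed sexes aged 100 to 140 days. Their brains were dissociated, and cells carrying the antigen ACSA-2 were selected on magnetic beads and cultured for 7 to 10 days on poly-lysine and laminin in another medium. For these a replicate was an isolation from 2 pooled mice. Cell origin, age, substrain, medium, coating, time in culture and BMP4 all differ between the groups together, so their parts in a difference cannot be told apart. The AGES vary around a single cell line, and both groups were grown in dishes, outside the tissue that surrounds astrocytes in the brain.

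Astrocytes clear glutamate and potassium around synapses, feed neurons with lactate and lipids, shape the extracellular matrix and change their genes in injury and inflammation. During development they arise from neural progenitors that stop dividing, under signals that include BMPs and cytokines. BMPs act through serine/threonine kinase receptors and SMAD proteins, whose direct targets include the Id genes. Primary astrocytes placed in culture can divide again and take on features of wound-edge cells.

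Between 28114306 and 36911160 counts fell on genes in the AGES libraries and between 30643701 and 35430519 in the AdAC CellC libraries, so the depth was alike. A count of at least 1 was found for 20951 to 21697 genes in AGES and for 24183 to 24731 genes in AdAC CellC. Correlations of log2 CPM were 0.989 to 0.993 between libraries of a group and 0.79 to 0.802 between the groups. Expression is given as TMM-scaled CPM (the counts of a gene scaled to a fixed library total), as mean ± SD (n = 4), and 3 counts in a library, used as the floor of detection, are about 0.1 CPM. Each gene was tested two-sided by edgeR's quasi-likelihood method with all 6 groups fitted together, p-values were adjusted after Benjamini and Hochberg, and the threshold was 0.05. By this test 5850 genes (30.9%) were higher and 8580 (45.3%) lower in AGES, 76.2% of the genes tested. More than 2-fold by edgeR's test of size were 7422 genes (39.2%), 2245 higher (11.9%) and 5177 lower (27.3%). These shares are the background for each gene group below. The median log2 fold change of all tested genes was −0.23, and scaling by library size alone moved it by −0.22, to −0.45, so all differences are relative to the TMM scale. Medians of gene lists are medians of log2 fold changes, and a second median sets the genes at the floor to their bounds. Atp1b2, Mlc1, Hepacam, Bmpr1a, Nog, Bmp6, Aurkb and Polr2a are named outside the fixed rule, after their values had been seen.

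**Figure D1:**
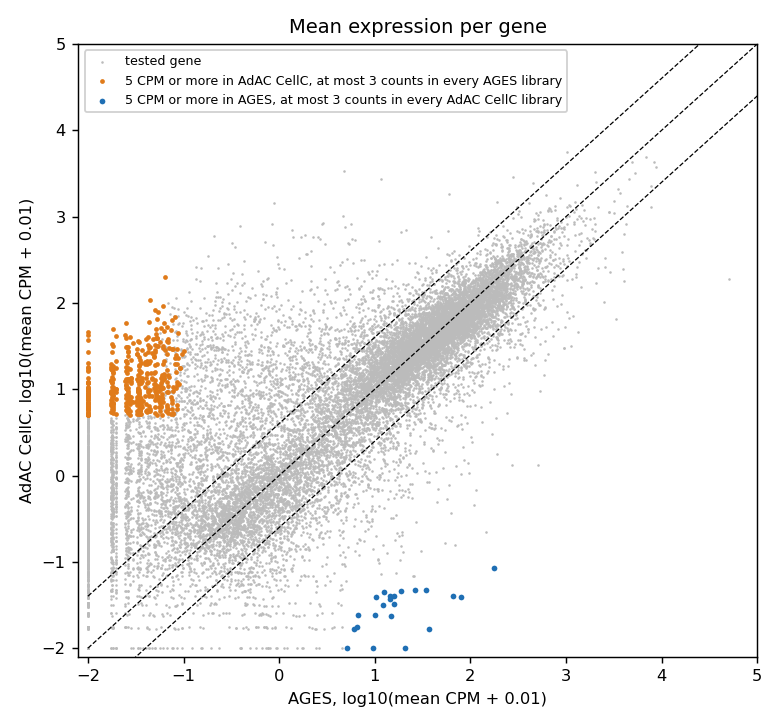
Mean expression of the tested genes in AGES against AdAC CellC. Each grey point is a gene outside X and Y, both axes are log10 of mean CPM + 0.01 over 4 libraries, and the dashed lines mark equal levels and a 4-fold difference. Orange points are the 400 genes at 5 CPM or more in AdAC CellC with at most 3 counts in every AGES library, and blue points the 22 genes of the opposite kind. The orange points along the left edge far outnumber the blue ones.

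The fold changes were spread more widely on the lower side. Over 4-fold and past the threshold, 1317 genes were higher and 4394 lower in AGES, and over 16-fold the numbers were 337 and 2858. The 8 libraries split by group without overlap for 13850 genes, 73.1% of those tested. Most genes named below were picked for large differences, so a lack of overlap stated for them follows in part from that choice. Among protein-coding genes 30.5% were higher and 50% lower in AGES, whereas among lincRNAs 40.3% were higher and 31.9% lower.

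Markers of other brain cells were read first, since the adult cells were selected from whole tissue. Oligodendrocyte genes were lower in AGES for 11 of 11 (median −8.44) markers, and their summed level was 16.3 to 24 CPM per library in AGES and 3811 to 9481 CPM in AdAC CellC. Mbp (myelin basic protein) was at 4.02, 3.8, 4.42 and 6.75 CPM in the AGES libraries and at 1822, 3623, 4581 and 3394 CPM in the AdAC CellC libraries. All 4 adult cultures were therefore far above AGES, with a wide spread among themselves. Mbp differed on the log2 scale by −9.46 (SE 0.44, edgeR adjusted p = 4.86e-15). Sox10, a transcription factor of the oligodendrocyte lineage, was at 0.339 ± 0.167 CPM in AGES and 157 ± 41.5 CPM in AdAC CellC, while Olig1, which progenitors also use, was at 239 ± 47.1 and 209.8 ± 54.5 CPM (log2 fold change 0.19, 95% interval −0.28 to 0.66).

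Endothelial markers summed to 2.14 to 3.92 CPM in AGES and 109.7 to 121 CPM in AdAC CellC, and 11 of 11 were lower (median −5.58, or −5.37 with bounds) in AGES. Cdh5, the cadherin of endothelial junctions, had no count in any AGES library and 17.6 ± 2.81 CPM in AdAC CellC, at least 177-fold more by the floor of 3 counts per library. Mural cell markers summed to 130.4 to 143 and 924 to 1085 CPM with 1 of 9 higher and 8 lower (median −4.36). Fibroblast markers summed to 78.7 to 107 and 1216 to 1680 CPM, with 1 of 12 higher and 10 lower (median −4.86, or −3.71 with bounds). Epithelial markers, led by Krt8, a keratin of simple epithelia (0.0413 and 50.2 ± 21.8 CPM), summed to 0.986 to 2.37 and 140.1 to 339 CPM, with 1 of 8 tested higher and 7 lower (median −9.46, or −8.03 with bounds). Choroid plexus markers summed to 8.7 to 12.9 and 269 to 448 CPM and all 6 were lower in AGES (median −7.21, or −4.79 with bounds), among them Ttr (transthyretin) at 0.96 ± 0.136 and 284 ± 78.7 CPM. The 8 ependymal markers were all lower in AGES (median −3.36), with sums of 59.3 to 88.3 and 249 to 353 CPM.

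Microglial markers summed to 188 to 212 CPM in AGES and 114 to 146 CPM in AdAC CellC, with 2 of 14 higher and 12 lower (median −4.43, or −2.97 with bounds) in AGES. In the AGES sum, Sall1, which other neural cells also use, had 111 ± 11.9 CPM, whereas C1qa, a subunit of complement C1q made by microglia, had a mean of 0.00725 CPM in AGES and 12.6 ± 2.64 CPM in AdAC CellC. Neuronal markers summed to 413 to 502 and 458 to 552 CPM, with 2 of 13 higher and 10 lower (median −5.87, or −3.56 with bounds). In AGES most of that was Map2 (419 ± 59.7 CPM), while Stmn2, a tubulin-binding protein of growing axons, had 2 counts in the 4 AGES libraries together and 59.1 ± 11.8 CPM in AdAC CellC. Precursors of oligodendrocytes summed to 322 to 418 and 507 to 891 CPM, with 1 of 9 tested higher and 6 lower (median −1.88). Pluripotency genes summed to 5.42 to 9.05 CPM in AGES and 30.2 to 34.8 CPM in AdAC CellC. Of the 4 tested 3 were higher in AGES and 1 lower (median 1.45). Their log2 fold changes ran from −3.23 to 4.90, and over 2-fold 2 were higher and 1 lower. Zfp42 had no count in either group, Pou5f1 (Oct4) had a mean of 0.00823 CPM in AGES and no count in AdAC CellC, and Nanog was at 0.918 ± 0.228 and 0.28 ± 0.0459 CPM. Most markers of other cell types were thus higher in the adult group, with sums of up to 9481 CPM for oligodendrocytes. The part of such cells in the results below was not tested. In whole cultures, fewer cells of a type and less RNA per cell cannot be told apart.

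Genes by which astrocytes are recognised differed in both directions, with more of them higher in AGES. Of 39 such genes 24 were higher and 13 lower in AGES, with a median log2 fold change of 1.31. Over 2-fold, 20 were higher and 7 lower. The summed level of the list was 64300 to 68870 CPM in AGES and 4656 to 5956 CPM in AdAC CellC, and Gfap, the intermediate filament of astrocytes, made up most of the AGES sum with 50500 ± 1883 CPM against 189 ± 56 CPM. All 39 genes were above the floor in both groups.

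Aldoc, the brain form of the glycolytic enzyme aldolase, was at 3390, 3287, 3327 and 3230 CPM in the AGES libraries and at 50.8, 59.1, 60.8 and 89.3 CPM in the AdAC CellC libraries. Every AGES library lay above every adult one by more than an order of magnitude. Aldoc had a log2 fold change of 5.67 (SE 0.17, edgeR adjusted p = 4.41e-20). The glutamate transporter Slc1a2 (GLT-1) was at 486, 388, 621 and 692 CPM in AGES and at 49.3, 52.3, 45.8 and 52.4 CPM in AdAC CellC. The difference for Slc1a2 was a log2 fold change of 3.45 (SE 0.19, edgeR adjusted p = 1.01e-14). Slc1a3 (GLAST), its partner in progenitors and astrocytes, was at 1265 ± 231 and 219 ± 50.9 CPM, and the groups did not overlap for either transporter. Atp1b2, which encodes the antigen by which the adult cells were selected, had a mean of 911 ± 120.5 CPM in AGES and 123 ± 17.9 CPM in AdAC CellC. For Atp1b2 the log2 fold change was 2.89 (SE 0.15, edgeR adjusted p = 3.84e-15).

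The water channel Aqp4 (245 ± 67.8 against 58.4 ± 13.7 CPM), the endfoot membrane protein Mlc1 (2881 ± 104 against 225 ± 37.8 CPM) and its binding partner Hepacam (802 ± 139 against 93 ± 17.2 CPM) were all higher in AGES. Agt, the precursor of angiotensin that astrocytes secrete, was at 221, 186, 129.6 and 224 CPM in AGES and at 2.24, 1.6, 1.65 and 1.61 CPM in AdAC CellC, a log2 fold change of 6.74 (SE 0.25). Its 4 AGES libraries ran from 129.6 to 224 CPM and the adult level was near 2 CPM. Apoe, the lipid carrier of the brain, was also higher in AGES (1023 ± 144 against 271 ± 51.2 CPM).

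Other astrocyte genes were lower in AGES, among them genes of gap-junction coupling, potassium buffering and folate and thyroid hormone handling. Gja1 (connexin 43, the main gap-junction protein of astrocytes) was at 20.4, 11.8, 3.69 and 5.4 CPM in AGES and at 212, 193, 204 and 226 CPM in AdAC CellC. The log2 fold change of Gja1 was −4.35 (SE 0.32, edgeR adjusted p = 2.09e-11). Kcnj10 (Kir4.1, the inward rectifier that buffers potassium) was at 20.2, 14.2, 9.16 and 24.5 CPM and at 210.4, 323, 345 and 382 CPM in the same order. Kcnj10 differed on the log2 scale by −4.21 (SE 0.25, edgeR adjusted p = 1.44e-13). For both genes the highest AGES library was well below the lowest adult one. Aldh1l1, a folate enzyme used as a pan-astrocyte marker, was lower in AGES at 15 ± 4.34 against 179.8 ± 41.9 CPM, as was Dio2, the deiodinase that activates thyroid hormone, at 0.76 ± 0.148 against 31.2 ± 7.56 CPM. Glul, the glutamine synthetase, was lower in AGES by less, and with overlap between the groups (432 ± 32.8 against 626 ± 122 CPM).

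**Figure D2:**
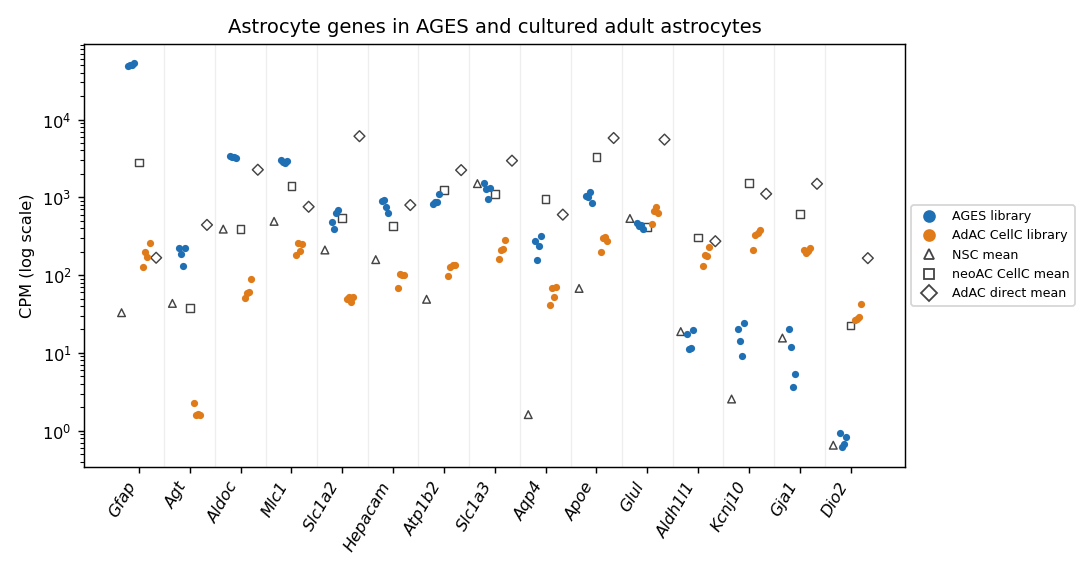
Astrocyte genes in every library. The vertical axis is CPM on a log scale, each filled circle is an AGES library (blue) or an AdAC CellC library (orange), and open symbols give the means of NSCs (triangles), neoAC CellC (squares) and AdAC direct (diamonds). From Gfap to Apoe the AGES circles lie above the adult ones, the circles of Glul overlap, and from Aldh1l1 to Dio2 the AGES circles lie below.

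The values of the other groups set these differences in place. The mean of Gfap was 32.9 CPM (NSCs), 2795 CPM (neoAC CellC) and 167 CPM (AdAC direct), and that of Aldoc 389.8, 392 and 2260 CPM in the same order. Gja1 was at 15.5 CPM in NSCs, near its AGES level, whereas neoAC CellC and AdAC direct had 613 and 1491 CPM. Kcnj10 had 2.55, 1523 and 1108 CPM. Between AGES and NSCs the difference, which is also the difference between their comparisons with AdAC CellC, was −0.60 on the log2 scale for Gja1 (edgeR adjusted p = 0.0785) and 2.73 for Kcnj10 (edgeR adjusted p = 1.64e-09). Over the 490 named genes that could be tested, AGES differed from NSCs for 290 (185 higher and 105 lower), against 65.9% of all genes tested. NeoAC CellC differed from AdAC CellC for 393 (187 higher and 206 lower), against 64.1% of all genes tested. Both comparisons share libraries with the one by whose values most of these genes were named, so nothing is read from the counts.

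Genes of neural progenitors were evenly split, with 13 of 27 tested higher and 11 lower in AGES (median log2 fold change −0.06). The shares of all tested genes were 30.9% higher and 45.3% lower. Pax6, a patterning factor of radial glia, was higher (108 ± 11.2 against 31.1 ± 2.7 CPM), as was Msi1 (188 ± 23 against 57.1 ± 5.88 CPM), an RNA-binding protein of stem cells. Sox2, which keeps progenitors multipotent and stays on in astrocytes, was at 219.8 ± 35.5 and 111 ± 8.77 CPM. Sox2 had a log2 fold change of 0.98 (SE 0.11, edgeR adjusted p = 1.31e-08). On the lower side were Nes, the progenitor intermediate filament (657 ± 162 against 1262 ± 57.7 CPM), Sox1 (0.432 ± 0.171 against 27.6 ± 3.69 CPM), Nr2e1 (Tlx, 0.33 ± 0.101 against 19.1 ± 4.26 CPM) and Prom1 (0.133 ± 0.0302 against 21.8 ± 4.31 CPM).

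BMP pathway genes differed in both directions. Of 37 genes 16 were higher and 16 lower (median 0.20), and over 2-fold 10 were higher and 14 lower. AGES had been given BMP4 and AdAC CellC had not. Among the targets, Id1 was at 522, 612, 678 and 649.8 CPM in AGES and at 42.6, 53.6, 49.8 and 64.8 CPM in AdAC CellC. Id2 was at 405, 519, 506 and 464 CPM and at 14.7, 21, 18.3 and 22.8 CPM, and Id3 at 962, 1066, 1130 and 1091 CPM and at 52, 63.2, 70.3 and 83.9 CPM. These 3 genes encode inhibitors of basic helix-loop-helix factors, and every AGES value lay above every adult value. Their log2 fold changes were 3.55 (SE 0.17), 4.62 (SE 0.17) and 3.98 (SE 0.16), with edgeR adjusted p = 1.73e-15, 2.23e-18 and 3.6e-17. Id4, the fourth of the family, went the other way at 11.5 ± 5.95 against 34.5 ± 3.71 CPM. The difference for Id4 was a log2 fold change of −1.58 (SE 0.24, edgeR adjusted p = 2.64e-06). In NSCs, Id1, Id2 and Id3 had 17.5, 22.7 and 151 CPM, and Id4 had 0.217 CPM.

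The type I receptors Bmpr1a (582 ± 39.3 against 85.2 ± 5.96 CPM) and Bmpr1b (91.2 ± 23.2 against 4.09 ± 0.474 CPM) were higher in AGES. Nog (noggin), an antagonist that binds BMPs outside the cell, was also higher (29.9 ± 15.7 against 5.27 ± 0.439 CPM). Among the ligands, Bmp4 had no count in any AGES library and 10.8, 9.85, 8.82 and 11.6 CPM in the AdAC CellC libraries, at least 103-fold more. Bmp6 was at 0.274 ± 0.152 against 87.4 ± 11.8 CPM. Gdf6 had 4 counts in the 4 AGES libraries together and 59.5 ± 11.7 CPM in AdAC CellC, a ratio of 1789 (95% counting interval 698 to 6564). Grem1 (gremlin), another antagonist, had 2 counts against 40.4 ± 8.05 CPM, and the homeobox target Msx2 had 1 count against 6.34 ± 1.08 CPM.

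Notch pathway genes were divided as well. Notch1 (506 ± 52.8 against 216 ± 29 CPM), the glycosyltransferase Lfng that tunes the receptor (109 ± 12.9 against 41.1 ± 6.89 CPM) and the target Hey1 (117 ± 14.8 against 23.6 ± 5.22 CPM) were higher in AGES. The ligands Jag1 (12.8 ± 3.08 against 67.3 ± 5.54 CPM) and Jag2 (0.984 ± 0.153 against 9.53 ± 1.26 CPM) and the targets Hey2 (0.0755 against 5.88 ± 0.399 CPM) and Heyl (0.042 against 8 ± 2.46 CPM) were lower. In all, 13 of 28 genes were higher and 12 lower (median log2 fold change −0.09), against 30.9% and 45.3% of all tested genes.

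Hox genes, which record position along the hindbrain and spinal cord, were found in AGES and were at or near the floor in AdAC CellC. Of 39 Hox genes 16 were tested, and 14 were higher and 0 lower (median 8.22, or 6.52 with bounds) in AGES. The summed level was 196 to 216 CPM in AGES and 0.531 to 0.921 CPM in AdAC CellC. Hoxa5 was at 64.2, 69.4, 64.6 and 61.8 CPM in the AGES libraries, while the 4 AdAC CellC libraries together held 4 counts. The ratio of the means was 2133 (95% counting interval 833 to 7828). Hoxa2, which marks hindbrain segments, had 36.5 ± 4.63 CPM against 1 count, Hoxb3 had 15.9 ± 1.11 CPM against 3 counts, and Hoxa10 had 6.51 ± 0.282 CPM against 1 count. In NSCs the levels were 65.1 CPM for Hoxa5 and 19.2 CPM for Hoxa2, and in neoAC CellC 0.0351 and 0.0282 CPM. For Hoxa5 the difference between AGES and NSCs was −0.00135 on the log2 scale (edgeR adjusted p = 1).

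Transcription factors that pattern the forebrain, midbrain, midbrain-hindbrain boundary and spinal cord, other than Hox, were lower more often than higher, with 27 of 46 tested lower and 16 higher (median −2.44, or −1.68 with bounds) in AGES, against a background of 45.3% and 30.9%. Over 2-fold, 26 were lower and 7 higher. Nkx6-2, of ventral progenitors and oligodendrocytes, was at 0.156, 0.232, 0.16 and 0.0987 CPM in AGES and at 41.4, 68.9, 78.8 and 62.2 CPM in AdAC CellC. For Nkx6-2 the log2 fold change was −8.55 (SE 0.32, edgeR adjusted p = 1.93e-17). Otx2, a factor of forebrain and midbrain, was at 28, 32, 23.8 and 25.4 CPM in AdAC CellC and had 2 counts in the 4 AGES libraries together. Nkx2-1, of the ventral forebrain, had 0.035 against 30.7 ± 3.64 CPM, and Pax2, of the midbrain-hindbrain boundary, 0.00823 against 10.5 ± 1.04 CPM. Every adult library was above every AGES library for these 4 genes.

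The 16 patterning genes that were higher in AGES included Gbx2, En1, Pax7 and Irx1. Genes of the midbrain-hindbrain boundary went both ways, Pax2 being lower and Gbx2 and En1 higher. Gbx2, which sets the anterior limit of the hindbrain, was at 9.79, 11.6, 15 and 13.3 CPM in AGES and at 1.14, 1.75, 1.99 and 2.2 CPM in AdAC CellC. En1, active on both sides of that border, was at 10.6, 15.1, 13.8 and 9.18 CPM and at 1.5, 2.36, 0.903 and 3.63 CPM. The AGES libraries lay above the adult ones for both genes. Pax7, a dorsal factor, had 8.63 ± 0.373 against 0.279 ± 0.135 CPM, a log2 fold change of 4.91 (SE 0.38), and Irx1 had 29.6 ± 2.98 against 4.23 ± 1.02 CPM. The levels of Gbx2 and En1 in NSCs were 3.59 and 6.55 CPM.

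**Figure D3:**
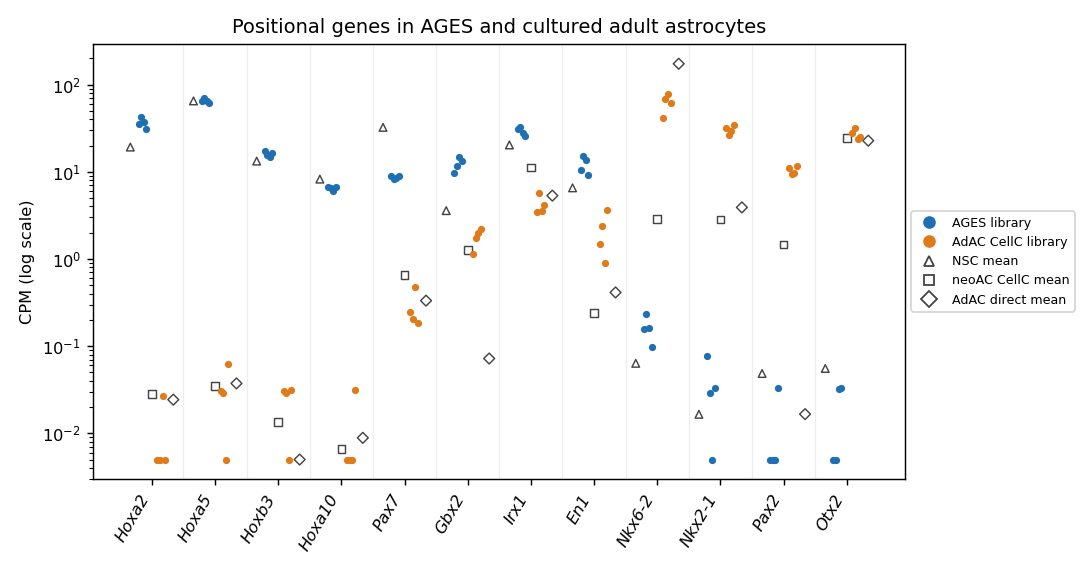
Positional genes in every library. The vertical axis is CPM on a log scale, with values below 0.005 drawn at 0.005. Filled circles are AGES (blue) and AdAC CellC (orange) libraries, and open symbols give the means of NSCs (triangles), neoAC CellC (squares) and AdAC direct (diamonds). The Hox genes, Pax7, Gbx2, En1 and Irx1 are high in AGES, and Otx2, Nkx2-1, Pax2 and Nkx6-2 are high in AdAC CellC.

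Genes of mitosis were lower in AGES without exception in the list, 42 of 42, with a median log2 fold change of −5.63, and 40 were lower by more than 2-fold. Their summed level was 182 to 196 CPM in AGES and 2897 to 3513 CPM in AdAC CellC. Mki67, which coats mitotic chromosomes and marks cycling cells, was at 0.663, 0.928, 1.31 and 1.02 CPM in AGES and at 261, 224, 234 and 288 CPM in AdAC CellC. The log2 fold change of Mki67 was −7.98 (SE 0.22, edgeR adjusted p = 1.19e-20). Top2a (topoisomerase II alpha) was at 3.67, 2.99, 2.88 and 3.88 and at 251, 247, 241 and 295 CPM. Cdk1, the kinase that drives mitosis, was at 6.67 ± 0.991 against 97.7 ± 10.6 CPM. No AGES library reached the adult range for these 3 genes. In NSCs the same genes stood at 958 CPM (Mki67), 1408 CPM (Top2a) and 254 CPM (Cdk1), and AGES differed from NSCs by −9.91, −8.72 and −5.25 on the log2 scale.

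Promoters of 3 of these genes are shown because all genes of the list were lower and these 3 hold known cell-cycle elements. Each is the 250 bases before the transcription start in RefSeq (GRCm38.p6, from 5′ to 3′ on the strand of the gene), and capitals mark the cell-cycle homology element TTTGAA and the CCAAT box on either strand. They are Mki67 at chr7:135716380-135716629, Top2a at chr11:99024190-99024439 and Cdk1 at chr10:69352913-69353162, all on the minus strand.
Mki67: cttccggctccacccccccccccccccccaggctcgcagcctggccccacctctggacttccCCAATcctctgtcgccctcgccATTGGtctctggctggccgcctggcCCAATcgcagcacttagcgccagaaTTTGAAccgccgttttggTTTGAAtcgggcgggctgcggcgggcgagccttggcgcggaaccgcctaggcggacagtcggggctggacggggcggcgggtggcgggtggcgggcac
Top2a: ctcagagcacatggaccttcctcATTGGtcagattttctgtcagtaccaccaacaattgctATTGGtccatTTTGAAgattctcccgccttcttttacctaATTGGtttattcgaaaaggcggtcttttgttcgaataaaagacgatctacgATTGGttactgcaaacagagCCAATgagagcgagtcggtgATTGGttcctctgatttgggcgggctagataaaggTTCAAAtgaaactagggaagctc
Cdk1: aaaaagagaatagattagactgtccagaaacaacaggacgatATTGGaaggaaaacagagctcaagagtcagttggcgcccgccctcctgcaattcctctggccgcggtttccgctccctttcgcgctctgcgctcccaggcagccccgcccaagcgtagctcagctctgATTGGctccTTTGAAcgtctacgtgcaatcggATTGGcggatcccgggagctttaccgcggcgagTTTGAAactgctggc

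Promoters were found by symbol for 34 of the 42 mitosis genes and for 11615 of 15042 tested protein-coding genes. In the window from 250 bases before to 50 bases after the start, TTTGAA or its reverse complement was present in 73.5% of the mitosis promoters (25 of 34) and in 14.2% of all promoters. The 3 promoters shown were chosen for holding it 2 times each, and the 250 bases before the starts of Ccnb1, Hmmr, Bub1 and Kif23 hold it 0 times. CCAAT was present in 73.5% against 42.2%. For the replication genes, E2F-type TTTCCCGC was present in 18.6% of 43 promoters against 2.1% of all, and TTTGGCGC in 14% against 0.981%. These shares describe the letters in the windows and carry no test. Fewer than 80% of the interferon, cholesterol and BMP genes had a promoter in the table, so the check of their motifs is void.

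DNA replication genes were lower for 45 of 52 and higher for 2, with a median of −2.13. Rrm2, a subunit of the reductase that makes deoxynucleotides, was at 2.14 ± 0.585 against 178 ± 12.8 CPM, and Tk1 (thymidine kinase) at 0.529 ± 0.229 against 61 ± 7.83 CPM. Mcm2, part of the replicative helicase, was at 15.6 ± 1.88 against 121 ± 7.71 CPM. The exceptions were Orc3 (50.8 ± 4.39 against 35.5 ± 1.57 CPM) and Rpa1 (239.9 ± 18.7 against 169 ± 8.17 CPM), subunits of the origin recognition complex and of the single-strand binding complex, which were higher in AGES.

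Regulators of entry into the cycle were split, with 7 of 30 higher and 19 lower (median −0.72). The INK4 inhibitor gene Cdkn2a was at 90.5, 96.2, 106 and 95 CPM in AGES and at 18.1, 17.3, 20.5 and 18.1 CPM in AdAC CellC. Cdkn2a differed on the log2 scale by 2.39 (SE 0.13, edgeR adjusted p = 6.66e-15). Its neighbour Cdkn2b was at 196 ± 20.2 against 37.2 ± 1.67 CPM, and Cdkn1b (p27) at 174 ± 3.12 against 61 ± 2.97 CPM. Cdkn1a (p21), a target of p53, was lower in AGES, at 11.8, 19.3, 26.4 and 26.9 CPM against 741, 723, 726 and 619.5 CPM. Cdkn1a had a log2 fold change of −5.05 (SE 0.23, edgeR adjusted p = 1.55e-15). Trp53 itself (24.5 ± 2.69 against 155 ± 9.64 CPM) and Ccnd1 (cyclin D1, 59.4 ± 40.2 against 1805 ± 89.9 CPM) were lower as well, as was the kinase partner Cdk6 (0.227 ± 0.0726 against 80.0 ± 9.91 CPM). NSCs had 57.2 CPM of Cdkn2a, 82.2 CPM of Trp53 and 109 CPM of Cdkn1a, and AGES differed from them by 0.76, −1.75 and −2.36 on the log2 scale (edgeR adjusted p = 4.62e-06, 1.53e-13 and 4.19e-10).

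**Figure D4:**
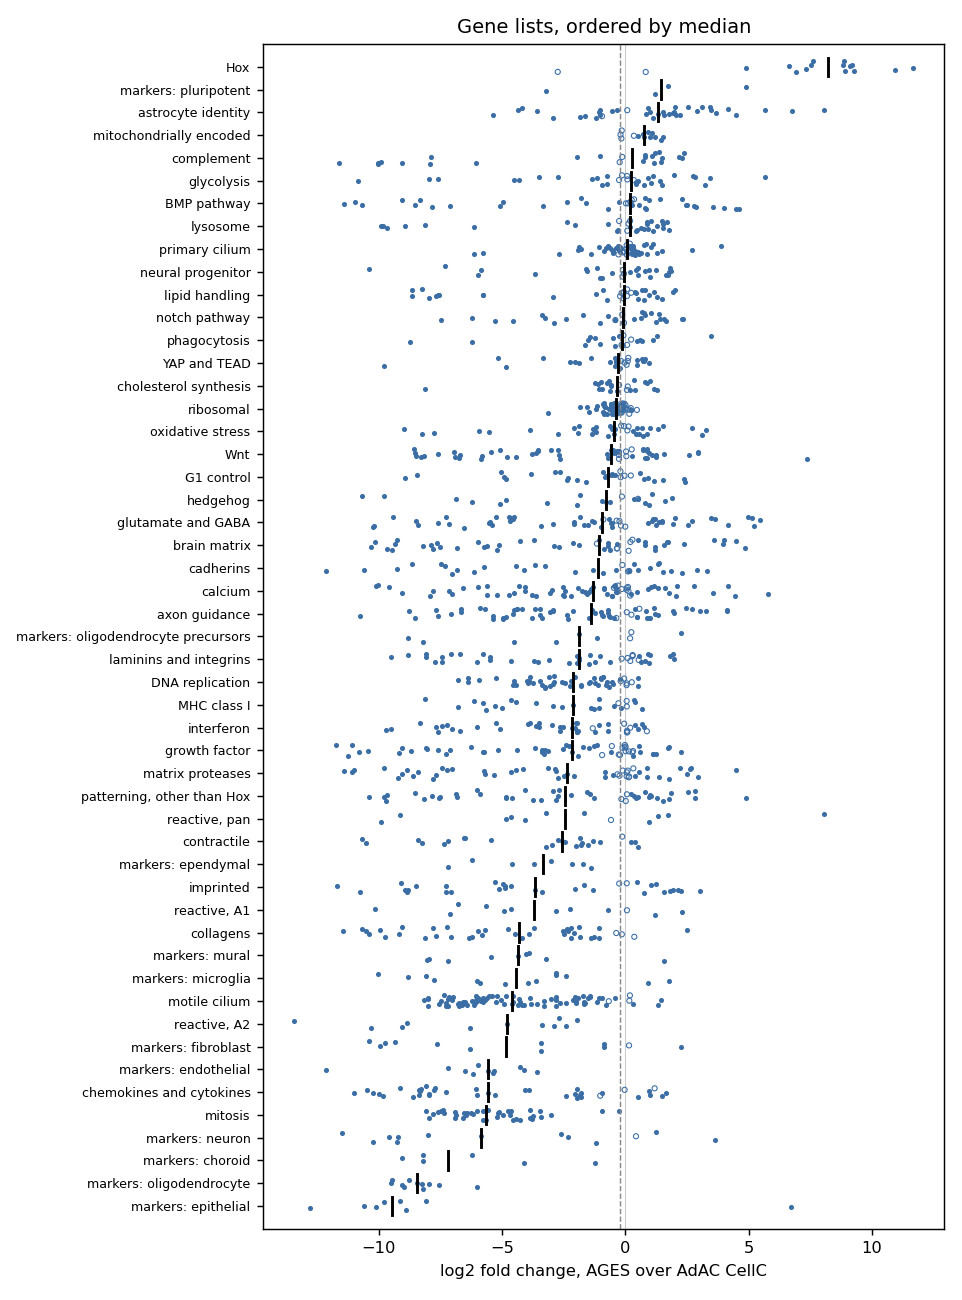
Log2 fold changes of the members of each gene list in AGES against AdAC CellC. Each dot is a tested gene, filled where the edgeR adjusted p was under 0.05, the short vertical bar is the median of the list, and the dashed line is the median of all tested genes (−0.23). Lists are ordered by their medians, from Hox at the top to mitosis and the epithelial and oligodendrocyte markers near the bottom.

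Collagens had the lowest median of the 4 matrix lists. Of 40 collagen genes 36 were lower and 1 higher (median −4.33, or −3.82 with bounds) in AGES, and 33 were lower by more than 2-fold, with summed levels of 812 to 1445 CPM in AGES and 8431 to 9107 CPM in AdAC CellC. Col5a2, a fibrillar collagen, was at 0.741, 1.1, 0.865 and 0.823 CPM in AGES and at 1561, 1394, 1475 and 1357 CPM in AdAC CellC. The difference for Col5a2 was a log2 fold change of −10.66 (SE 0.21, edgeR adjusted p = 1.5e-23). Col1a1, of the most abundant fibril, was at 0.741, 0.667, 0.961 and 0.922 against 918, 595, 866 and 873 CPM. All AGES libraries were below 1 CPM for Col1a1 while no adult library was below 595 CPM. Basement membrane Col4a1 was lower at 311 ± 99.2 against 1301 ± 37.9 CPM, and only Col9a2 was higher (7.47 ± 2.29 against 1.29 ± 0.381 CPM). Fibroblast markers, which include Col1a1, Col1a2 and Col3a1, moved with this list, as given above.

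Proteoglycans and glycoproteins of the brain matrix differed in both directions. Bcan (brevican) was at 1472, 1375, 1143 and 1286 CPM in AGES and at 35.5, 43.5, 46.2 and 56.6 CPM in AdAC CellC. For Bcan the log2 fold change was 4.86 (SE 0.16, edgeR adjusted p = 3.07e-19). Among the higher, Ncan (neurocan) was at 3968 ± 885 against 250.2 ± 67.6 CPM, Tnr (tenascin R) at 360.3 ± 88.7 against 23.2 ± 2.55 CPM and Sparcl1 (hevin, which astrocytes secrete and which promotes synapses) at 4034 ± 763 against 180.3 ± 40.4 CPM. None of the 4 genes overlapped between the groups, as was the case for 73.1% of all tested genes. Within the same list of 49 genes 29 were lower and 14 higher (median −1.05, or −0.87 with bounds), and at the low end were Postn (periostin, 3 counts against 35.8 ± 17 CPM), Efemp1 (0.0907 ± 0.03 against 77.5 ± 6.14 CPM) and Fbln5 (0.219 ± 0.06 against 257 ± 10.8 CPM), glycoproteins of elastic and wound matrix. Thbs1 (thrombospondin 1, a synapse-forming factor secreted by astrocytes) was at 9.68, 13.8, 14.3 and 8.03 against 3285, 2647, 2408 and 2479 CPM. The log2 fold change of Thbs1 was −7.88 (SE 0.23, edgeR adjusted p = 3.58e-20).

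Laminins and integrins were lower for 27 of 42 genes and higher for 9 (median −1.88). The laminin receptors Itga6 (494 ± 59.5 against 126 ± 11.9 CPM) and Dag1 (dystroglycan, 1562 ± 142 against 406 ± 14.2 CPM) and the ligand Agrn (1067 ± 150.5 against 302 ± 43.8 CPM) were higher in AGES. The laminin chain genes Lama2 (0.205 ± 0.0133 against 44 ± 4.39 CPM) and Lama4 (0.068 ± 0.0756 against 56.2 ± 6.66 CPM) and the linker Nid1 (0.661 ± 0.0934 against 181 ± 24.7 CPM) were lower. Of 51 matrix proteases and inhibitors 12 were higher and 30 lower (median −2.36, or −2.07 with bounds). Plat (tissue plasminogen activator) was higher at 1257 ± 43.8 against 202 ± 22.1 CPM, together with the inhibitors Serpine2 (1152 ± 169 against 189 ± 16.8 CPM) and Timp4 (160.3 ± 33.8 against 7.08 ± 0.905 CPM). Lox, which cross-links collagen, was lower at 0.383 ± 0.0616 against 782 ± 92 CPM, as was Mmp2 (0.311 ± 0.252 against 142 ± 10.9 CPM).

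Contractile genes of smooth muscle type were lower in AGES. Acta2 (alpha smooth muscle actin) was at 8, 6.53, 4.07 and 3.75 CPM in AGES and at 916, 799.5, 713 and 825 CPM in AdAC CellC. Acta2 differed on the log2 scale by −7.19 (SE 0.29, edgeR adjusted p = 2.55e-16). Tagln (SM22) was at 2.83 ± 0.568 against 852 ± 77.6 CPM, Cnn1 (calponin 1) at 0.292 ± 0.0802 against 99.5 ± 16.8 CPM and Tpm2 (beta tropomyosin) at 0.0422 against 65.3 ± 8.76 CPM. Of 25 genes 21 were lower and 3 higher (median −2.56), the higher ones being Cnn3, Pdlim7 and Vcl. With scaling by library size alone Vcl had a log2 fold change of −0.00557. Without AGES replicate 3, Vcl (edgeR adjusted p = 0.07285) and Pdlim7 (edgeR adjusted p = 0.1074) did not pass the test. Targets of YAP and TEAD were divided, with 7 of 26 genes of that list higher and 14 lower (median −0.30), against 30.9% and 45.3% of all tested genes. Ccn2 (CTGF), a target that stretch induces, was at 18.7 ± 10.2 against 669 ± 68.3 CPM and Ccn1 at 159.7 ± 52.4 against 659 ± 44.5 CPM, whereas Yap1 itself was at 191 ± 22.6 against 111 ± 3.4 CPM.

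Inflammatory genes were lower in AGES in most of the lists examined, with complement C3 among the exceptions. Of 39 tested chemokine and cytokine genes 31 were lower and 5 higher (median −5.58, or −3.26 with bounds). Cxcl1, which attracts neutrophils, was at 25.3, 21.9, 24.9 and 24.8 CPM in the AdAC CellC libraries and had 2 counts in the 4 AGES libraries together. Ccl2, which attracts monocytes, was at 14.4 ± 10.9 against 56.1 ± 5.23 CPM, and Lif, a cytokine of the IL-6 family, at 2.15 ± 1.89 against 145 ± 22.6 CPM. Tgfb2 (167 ± 36.7 against 54 ± 3.54 CPM) and the membrane-bound chemokine Cx3cl1 (619.5 ± 54.8 against 322 ± 22.6 CPM) were higher in AGES.

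Osmr, the receptor of oncostatin M and a pan-reactive gene, was at 44.4, 56.3, 51 and 54.4 CPM in AdAC CellC and had 6 counts in the AGES libraries together, a ratio of 1079 (95% counting interval 496 to 2939). Lcn2 (lipocalin 2), which rises in reactive astrocytes, was at 9.09, 4.03, 29.5 and 142 CPM in AGES and at 309, 526, 493 and 388 CPM in AdAC CellC. Lcn2 had a log2 fold change of −3.22 (SE 0.69, edgeR adjusted p = 0.00029). Without AGES replicate 4, where Lcn2 was highest, it was −4.92. The pan-reactive list, which includes Gfap and Vim, had 4 of 12 genes higher and 7 lower (median −2.45), and Serpina3n was at 353 ± 309 and 529.9 ± 141 CPM (log2 fold change −0.58, 95% interval −1.42 to 0.25). Without AGES replicate 4 the log2 fold change of this gene, Serpina3n, was −1.29 (edgeR adjusted p = 0.00141), which passes the test. All 11 tested genes of the ischemia-type (A2) list were lower (median −4.79). Ptgs2 (cyclooxygenase 2) had no count in any AGES library and 48.8, 35.5, 40.2 and 45.5 CPM in AdAC CellC, at least 426-fold more, and S100a10 was at 0.138 ± 0.0573 against 182 ± 21.8 CPM.

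In the neuroinflammatory (A1) list 9 of 12 tested genes were lower and 2 higher (median −3.73, or −3.14 with bounds). C3, the central complement component, was at 1142, 965, 1647 and 2733 CPM in AGES and at 249, 454, 322 and 308 CPM in AdAC CellC. The difference for C3 was a log2 fold change of 2.28 (SE 0.28, edgeR adjusted p = 1.11e-07). Its AGES libraries were spread over a wide range, all above the adult ones. Serping1, an inhibitor of C1, was at 51.4 ± 5.37 against 22.4 ± 2.01 CPM. Of 24 complement genes 12 were higher and 10 lower (median 0.28), with the protease Masp1 among the higher (69.4 ± 38.4 against 15.4 ± 1.71 CPM) and the regulator Cd55 (5 counts against 24.2 ± 4.75 CPM) among the lower.

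Antigen presentation by MHC class I followed the lower side, 19 of 25 genes against 3 higher (median −2.14, or −1.41 with bounds). H2-D1, a heavy chain, was at 6.32, 4, 11 and 13.8 CPM in AGES and at 213, 211, 234 and 207 CPM in AdAC CellC. For H2-D1 the log2 fold change was −4.63 (SE 0.33, edgeR adjusted p = 1.67e-11). H2-K1 was at 33.5 ± 7.57 against 197 ± 6.39 CPM, and the groups were apart for both, although reads of these near-identical genes can be shared. The light chain B2m was at 165 ± 38.5 and 201 ± 12.3 CPM (log2 fold change −0.28, 95% interval −0.65 to 0.08), and B2m passed the test with scaling by library size alone (−0.51, edgeR adjusted p = 0.0104). Interferon-stimulated genes were lower for 32 of 43 and higher for 4 (median −2.17). Ifih1 (MDA5, a sensor of viral RNA) had 2 counts in the AGES libraries together against 16.8 ± 4.25 CPM, Trim25, which activates such sensors, 5 counts against 32.2 ± 4.62 CPM, and Bst2 (tetherin) 0.103 ± 0.082 against 33.5 ± 3.46 CPM.

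Growth factors and their receptors were lower for 34 of 55 genes and higher for 9 (median −2.18). The EGF receptor ligands Ereg (1 count against 40.9 ± 5.92 CPM) and Areg (no count against 9.38 ± 0.96 CPM, at least 94-fold) had at most 1 count in AGES. Gdnf, a survival factor of dopaminergic neurons, had no count in AGES and 6.8 ± 1.17 CPM in AdAC CellC, at least 68.2-fold more, and Vegfc, of lymphatic vessels, no count and 8.26 ± 0.271 CPM. Igf1 was at 0.743 ± 0.378 against 41.4 ± 5.03 CPM and Igfbp2, which binds IGFs, at 277 ± 104 against 2845 ± 319.6 CPM. Higher in AGES were Fgf1 (153 ± 30.3 against 46 ± 5.73 CPM), the receptor Fgfr3 (172 ± 9.18 against 50.9 ± 9.75 CPM) and Bdnf (22.8 ± 4.61 against 9.74 ± 1.17 CPM). Egfr, through which the NSCs had been expanded, was at 81.7 ± 11.6 against 53.6 ± 4.23 CPM.

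Hedgehog genes differed in both directions. The ligand Shh was at 0.039, 0, 0.16 and 0.0329 CPM in AGES and at 124, 103, 81.9 and 94.8 CPM in AdAC CellC, without overlap, and Dhh, another ligand, had 3 counts in AGES against 25.5 ± 4.55 CPM. The log2 fold change of Shh was −10.68 (SE 0.49, edgeR adjusted p = 2.55e-15). Without AGES replicate 3 the value of Shh was −11.93. The target Gli1 was at 0.406 ± 0.136 against 3.77 ± 1.64 CPM. The receptor Ptch1 (161 ± 11.4 against 91.8 ± 9.93 CPM), the transducer Smo (259.5 ± 25.9 against 124 ± 6.94 CPM) and the co-receptor Gas1 (186 ± 36.8 against 50.4 ± 8.02 CPM) were higher in AGES. Across the 21 genes 7 were higher and 12 lower (median −0.78), against 30.9% and 45.3% of all tested genes. Wnt genes were higher for 16 of 53 and lower for 31 (median −0.60, or −0.51 with bounds), against 30.9% and 45.3% of all tested genes. Wif1, which binds and inhibits Wnts, was at 17.9, 15.1, 17.5 and 28.6 CPM in AGES and at 0.0307, 0.0583, 0.106 and 0.279 CPM in AdAC CellC, a log2 fold change of 7.36 (SE 0.50), and of 8.14 without AdAC CellC replicate 4. Sfrp1, a secreted inhibitor of another family, was at 0.499 ± 0.131 against 54.9 ± 7.28 CPM, and Fzd3, a receptor of axon guidance, at 192 ± 32.5 against 32 ± 4.63 CPM. The Wnt target Axin2 was at 28.9 ± 6.12 and 34.6 ± 4.77 CPM (log2 fold change −0.26, 95% interval −0.53 to 0.02), and Axin2 passed the test without AGES replicate 1 (−0.334, edgeR adjusted p = 0.0389).

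Several abundant genes of energy metabolism were higher in AGES. Besides Aldoc, the lactate dehydrogenase subunit Ldha was at 1395, 1323, 1888 and 1837 CPM in AGES and at 411, 391, 394 and 436 CPM in AdAC CellC. Ldha differed on the log2 scale by 1.98 (SE 0.17, edgeR adjusted p = 1.15e-10). Pygb (brain glycogen phosphorylase) was at 1449 ± 250.4 against 153 ± 7.54 CPM, Ppp1r3c, which targets a phosphatase to glycogen, at 82.3 ± 5.45 against 7.55 ± 1.43 CPM, and Pfkm at 474 ± 38.3 against 67.1 ± 5.33 CPM. Other isozymes of the same steps were lower, such as Pfkp (5.51 ± 1.98 against 126 ± 14.4 CPM) and Hk2 (9.9 ± 6.65 against 65.7 ± 4.2 CPM). In total 15 of 32 glycolysis and glycogen genes were higher and 12 lower (median 0.21). RNAs of the mitochondrial genome were higher for 9 of 13 (median 0.74), and the others did not pass the test. Examples were mt-Nd5 (3205 ± 299.8 against 1497 ± 149 CPM) and mt-Nd4 (1589 ± 140.2 against 807 ± 65.5 CPM), subunits of complex I, while mt-Nd1 was at 1534 ± 166 and 1208 ± 105 CPM (log2 fold change 0.34, 95% interval −0.06 to 0.75), and mt-Nd1 passed the test in a fit of the 8 libraries alone (0.45, edgeR adjusted p = 0.00203).

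Metallothioneins and several antioxidant enzymes were high in AGES. Mt1 was at 2529, 2140, 2552 and 2926 CPM in AGES and at 236, 283, 259.9 and 276 CPM in AdAC CellC. Mt1 had a log2 fold change of 3.27 (SE 0.14, edgeR adjusted p = 3.61e-17). Mt3, the brain form, was at 2140 ± 397 against 252 ± 30.3 CPM and Prdx6 (peroxiredoxin 6) at 4001 ± 579.6 against 623 ± 37.8 CPM. Gpx3 (0.0562 ± 0.0567 against 31.1 ± 1.66 CPM), Gpx7 (0.0556 ± 0.0776 against 18.6 ± 0.735 CPM) and Hmox1 (164 ± 38.8 against 242 ± 46.8 CPM) were lower. The call of Hmox1 was lost without a filter on low counts (edgeR adjusted p = 0.0586). Over the list 13 of 37 tested were higher and 20 lower (median −0.46), against 30.9% and 45.3% of all tested genes. Nnt, which makes mitochondrial NADPH and in which C57BL/6J but not C57BL/6N mice carry a deletion, was at 104, 97.3, 102 and 91.3 CPM in AGES and at 35.7, 37.2, 34.7 and 35.8 CPM in AdAC CellC. The difference for Nnt was a log2 fold change of 1.46 (SE 0.07, edgeR adjusted p = 9.65e-16). The groups did not overlap for this gene, and the group made from C57BL/6N cells was the higher.

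Cholesterol synthesis genes differed in both directions, 8 of 23 higher and 12 lower (median −0.35), against 30.9% and 45.3% of all tested genes. Over 2-fold, 1 was higher and 2 were lower, and the lowest log2 fold change in the list was −8.14. Sqle (372 ± 18.4 against 185 ± 9.14 CPM) and Hmgcs1 (710.2 ± 125 against 392 ± 18.5 CPM) were higher, whereas Idi1 (13.3 ± 2.66 against 28.9 ± 1.81 CPM) was lower. Lipid handling was split as 12 of 32 higher and 13 lower (median −0.07), against 30.9% and 45.3% of all tested genes. Plin2, the coat of lipid droplets, was at 0.351, 0.464, 0.385 and 0.461 CPM in AGES and at 196, 169, 165 and 159 CPM in AdAC CellC. For Plin2 the log2 fold change was −8.67 (SE 0.14, edgeR adjusted p = 1.49e-24). Lpl (lipoprotein lipase) was at 0.0885 ± 0.0469 against 38 ± 5.82 CPM, and Lcat, which esterifies cholesterol on brain lipoproteins, was higher at 74 ± 6.6 against 18.3 ± 3.05 CPM. The fatty acid binding protein Fabp7 was at 369 ± 86.1 and 384 ± 112 CPM (log2 fold change −0.06, 95% interval −0.47 to 0.35).

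Cytosolic ribosomal protein genes were lower for 51 of 75 tested and higher for 2, with a median log2 fold change of −0.38 that lay close to the −0.23 of all genes. The 2 higher genes were Rps21 (236 ± 15.6 against 200.4 ± 14.8 CPM) and Rpl7 (700.2 ± 63.7 against 602 ± 41.1 CPM), and with scaling by library size alone Rpl7 had a log2 fold change of −0.00218. Without AGES replicate 2 neither Rps21 (edgeR adjusted p = 0.1276) nor Rpl7 (edgeR adjusted p = 0.1213) passed the test. Rplp0 was at 322 ± 14.2 against 1160 ± 76.1 CPM. Many ribosomal genes have processed copies that share reads, so their levels are uncertain.

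Of 56 glutamate and GABA genes 19 were higher and 32 lower (median −0.95), against 30.9% and 45.3% of all tested genes. Grin3a, an NMDA receptor subunit, was at 95.5, 133, 107 and 73.7 CPM in AGES and at 2.89, 2.19, 3.08 and 2.85 CPM in AdAC CellC, and the groups stood far apart. The log2 fold change of Grin3a was 5.21 (SE 0.28, edgeR adjusted p = 5.24e-14). Gabbr2 (a subunit of the GABA-B receptor) was at 24.8 ± 4.39 against 0.786 ± 0.228 CPM and Grm4 at 36.8 ± 20 against 0.821 ± 0.276 CPM. Gria1, an AMPA receptor subunit, was lower at 0.128 ± 0.082 against 46 ± 7.7 CPM, as was the cystine-glutamate exchanger Slc7a11 at 1.34 ± 0.5 against 62.4 ± 15.3 CPM. Slc6a11 (GAT-3), the astrocytic GABA transporter, was at 3.24 ± 1.09 against 10.6 ± 2.82 CPM.

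Receptors and channels of calcium signalling differed in both directions. Adora1, the adenosine A1 receptor, was at 696, 631, 790.2 and 839 CPM in AGES and at 32, 43.5, 48 and 41 CPM in AdAC CellC. Adora1 differed on the log2 scale by 4.17 (SE 0.12, edgeR adjusted p = 2.28e-20). P2ry1, a receptor of ADP, was at 110.1 ± 31.4 against 9.34 ± 1.4 CPM, and Adra2a, of noradrenaline, at 71.2 ± 33.6 against 1.28 ± 0.178 CPM. P2ry2, of ATP and UTP, was lower at 1.98 ± 0.807 against 15.6 ± 0.919 CPM. Grm5, the metabotropic receptor of young astrocytes and a member of the glutamate and GABA list, was lower too, at 0.0849 ± 0.0714 against 8 ± 1.7 CPM. Itpr1, the store channel, was at 141 ± 20.7 and 123 ± 9.46 CPM (log2 fold change 0.19, 95% interval −0.02 to 0.40), passing the test without AGES replicate 4 (Itpr1, edgeR adjusted p = 0.03428), and Orai1, of store-operated entry, at 18.2 ± 1.38 and 16.7 ± 1.02 CPM (log2 fold change 0.12, 95% interval −0.11 to 0.36), which passed in a fit of the 8 libraries alone (Orai1, 0.22, edgeR adjusted p = 0.0299). The whole calcium list had 15 of 67 genes higher and 44 lower (median −1.31, or −0.88 with bounds).

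Axon guidance genes were lower for 42 of 64 and higher for 18 (median −1.41). Slit2, a repellent, was at 0.156, 0.058, 0.192 and 0.165 CPM in AGES and at 241, 269, 245 and 259 CPM in AdAC CellC. Slit2 had a log2 fold change of −10.78 (SE 0.25, edgeR adjusted p = 4.19e-22). Robo2, which binds Slits, went the other way at 200.1, 197, 147 and 162 CPM against 7.18, 9.71, 9.54 and 13.7 CPM. The difference for Robo2 was a log2 fold change of 4.14 (SE 0.18, edgeR adjusted p = 1.51e-16). The AGES and adult libraries did not overlap for ligand or receptor. Sema6d was higher at 724 ± 208 against 112 ± 20.7 CPM and the receptor Ephb2 lower at 26.4 ± 16.1 against 202 ± 21.2 CPM.

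Among cadherins and catenins, 11 of 32 were higher and 18 lower (median −1.12), against 30.9% and 45.3% of all tested genes. Cdh2 (N-cadherin), the main cadherin of neural cells, was at 447, 388, 539 and 444 CPM in AGES and at 432, 417, 407 and 434 CPM in AdAC CellC, with overlap between the groups (log2 fold change 0.11, 95% interval −0.05 to 0.27). Cdh2 passed the test without AGES replicate 2 (0.17, edgeR adjusted p = 0.0396) and without a filter on low counts (0.23, edgeR adjusted p = 0.0187). Cdh1 (E-cadherin) had 2 counts in the AGES libraries together and 31 ± 17.3 CPM in AdAC CellC, and Cdh11, of mesenchyme, was at 0.258 ± 0.0641 against 46.4 ± 3.05 CPM. Cdh4 (R-cadherin) was higher at 191 ± 35.3 against 39.2 ± 3.86 CPM, as were Ctnnb1 (beta-catenin) at 1884 ± 47.8 against 726 ± 22.7 CPM and Ctnnd2 at 462 ± 76.5 against 62.5 ± 7.39 CPM.

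Receptors for engulfing debris and synapses showed small differences in the examples named here. Megf10 (57.2 ± 10.6 against 80.7 ± 6.35 CPM) and Axl (366 ± 21.5 against 484 ± 45.7 CPM) were lower and Mertk (36.1 ± 6.97 against 14.7 ± 1.43 CPM) and Lrp1 (1435 ± 328 against 959.6 ± 50.4 CPM) higher in AGES. Megf10 lost its call without any of 7 of the 8 libraries, with the highest edgeR adjusted p, 0.1264, without AGES replicate 3. The bridging ligand Gas6 stood out from these receptors at 1.44, 1.07, 1.35 and 1.61 CPM in AGES against 558, 691, 509 and 563 CPM in AdAC CellC. For Gas6 the log2 fold change was −8.73 (SE 0.20, edgeR adjusted p = 4.19e-22). The list of 21 genes had 6 higher and 10 lower (median −0.16), against 30.9% and 45.3% of all tested genes.

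Lysosomal genes included abundant ones that were higher in AGES and others that were at or near the floor there. Psap (prosaposin, 4324 ± 173 against 1334 ± 69.4 CPM), Ctsb (cathepsin B, 3166 ± 1457 against 1092 ± 97.7 CPM) and Lamp1 (2009 ± 246 against 819 ± 53.8 CPM) were higher. Ctsz (cathepsin Z) was at 0.273, 0.116, 0.224 and 0.23 CPM in AGES and at 173, 176, 166 and 172 CPM in AdAC CellC. The log2 fold change of Ctsz was −9.68 (SE 0.16, edgeR adjusted p = 1.49e-24). Gusb, the lysosomal beta-glucuronidase, was at 0.0703 ± 0.0516 against 70.7 ± 3.15 CPM and Ctsc (cathepsin C) at 0.109 ± 0.0444 against 106 ± 23.4 CPM. Of the 31 tested genes 16 were higher and 11 lower (median 0.19).

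Motile cilium genes were lower for 77 of 83 and higher for 3, with a median of −4.60, or −4.41 with bounds. Foxj1, the master regulator of motile cilia, was at 64.7, 58.1, 52.1 and 76.8 CPM in AGES and at 179, 248, 177 and 232 CPM in AdAC CellC. Foxj1 differed on the log2 scale by −1.73 (SE 0.15, edgeR adjusted p = 1.06e-10). The regulatory factors Rfx2 (53 ± 1.67 against 19.3 ± 3.34 CPM) and Rfx3 (62.6 ± 6.98 against 24.9 ± 2.23 CPM) were higher in AGES, while axonemal genes such as Rsph1 (1.29 ± 0.168 against 36.9 ± 7.98 CPM) and Drc1 (0.0717 ± 0.0683 against 19.9 ± 4.26 CPM) were lower. Ependymal markers, which share Foxj1, were lower too, as given above. Genes of the primary cilium were balanced, 22 of 53 higher and 21 lower, with a median of 0.06. Gpr161, a receptor of the ciliary membrane, was higher at 124 ± 5.91 against 18.9 ± 2.33 CPM, and the ciliary cyclase Adcy3 was lower at 0.363 ± 0.111 against 19.7 ± 0.935 CPM. Arl13b, used to stain cilia, was at 15.3 ± 1.35 against 25.3 ± 1.54 CPM. Arl13b had a log2 fold change of −0.72 (SE 0.08, edgeR adjusted p = 2.35e-08).

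A set of 400 genes had a mean of 5 CPM or more in AdAC CellC and at most 3 counts in every AGES library, whereas 22 genes showed the opposite. Of the 400, 391 were protein coding, and of the 22, 10 were, 7 of them Hox genes. Of the 400 genes, 246 (61.5%) also had at most 3 counts in every NSC library and only 5 reached 5 CPM in NSCs. In the primary cells, 200 reached 5 CPM in neoAC CellC and 188 in AdAC direct, and 105 did so in all 4 primary groups. The 400 genes were chosen by their AGES and AdAC CellC values, so their levels in those groups are a description.

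Genes of this kind came from many pathways. Ly6e, a membrane protein of the Ly6 family, had 4 counts in the AGES libraries together against 106, 85.5, 141 and 95.7 CPM in the AdAC CellC libraries, a ratio of 3061 (95% counting interval 1195 to 11230). Tnfrsf1b (TNF receptor 2) had 5 counts against 83 ± 6.95 CPM and Syt4, a synaptotagmin of secretory vesicles, 5 counts against 79 ± 7.46 CPM. In neoAC CellC and AdAC direct, Ly6e had 26.1 and 13.8 CPM and Tnfrsf1b 5.16 and 1.06 CPM. Genes named here after their values were seen, all above 5 CPM in the 4 primary groups, were Man1a, a mannosidase of the Golgi (9 counts against 69.6 ± 8.95 CPM), Cers4, a ceramide synthase (8 counts against 64 ± 4.13 CPM), Stx17, which fuses autophagosomes with lysosomes (7 counts against 38.5 ± 3.31 CPM), Hps1, of lysosome-related organelles (6 counts against 30.1 ± 1.07 CPM), and Tlr3, a sensor of double-stranded RNA (3 counts against 14.5 ± 2.29 CPM).

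Among imprinted genes, which are expressed from a single parental copy, 21 of 33 tested were lower and 10 higher (median −3.66, or −2.04 with bounds) in AGES. Grb10, a growth-inhibiting adaptor, was at 252, 190.0, 198 and 168 CPM in the AdAC CellC libraries and had 7 counts in the AGES libraries together, a ratio of 3727 (95% counting interval 1809 to 9269). H19, a non-coding RNA that is expressed from the maternal copy, had 6 counts against 93.1 ± 38.9 CPM. Meg3 and Rian, neighbouring non-coding RNAs of the maternal copy on chromosome 12, were at 0.39, 0.203, 0.192 and 0.198 against 102, 99.6, 126 and 119.7 CPM and 0.078, 0.116, 0.0641 and 0.165 against 66.5, 59, 53.4 and 64.8 CPM. Cdkn1c (p57, a cell-cycle inhibitor) had 2 counts against 9.96 ± 1.88 CPM. For these 5 genes the adult libraries were all far above the AGES libraries. Their NSC means were 0.128 CPM (Grb10), 0.0244 CPM (H19), 0.208 CPM (Meg3), 0.0946 CPM (Rian) and 0.0319 CPM (Cdkn1c).

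Other imprinted genes were higher in AGES. Peg3, a zinc-finger protein of the paternal copy, was at 323, 349, 255 and 258 CPM in AGES and at 68.5, 79.9, 80.2 and 78.4 CPM in AdAC CellC. The difference for Peg3 was a log2 fold change of 1.95 (SE 0.15, edgeR adjusted p = 2.58e-11). Sgce (191 ± 14.4 against 40.5 ± 1.13 CPM) and Zrsr1 (79.6 ± 7.11 against 18.2 ± 1.15 CPM) were higher too. Igf2, a fetal growth factor, was at 4.74 ± 0.623 against 49.4 ± 10.9 CPM, lower in AGES.

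**Figure D5:**
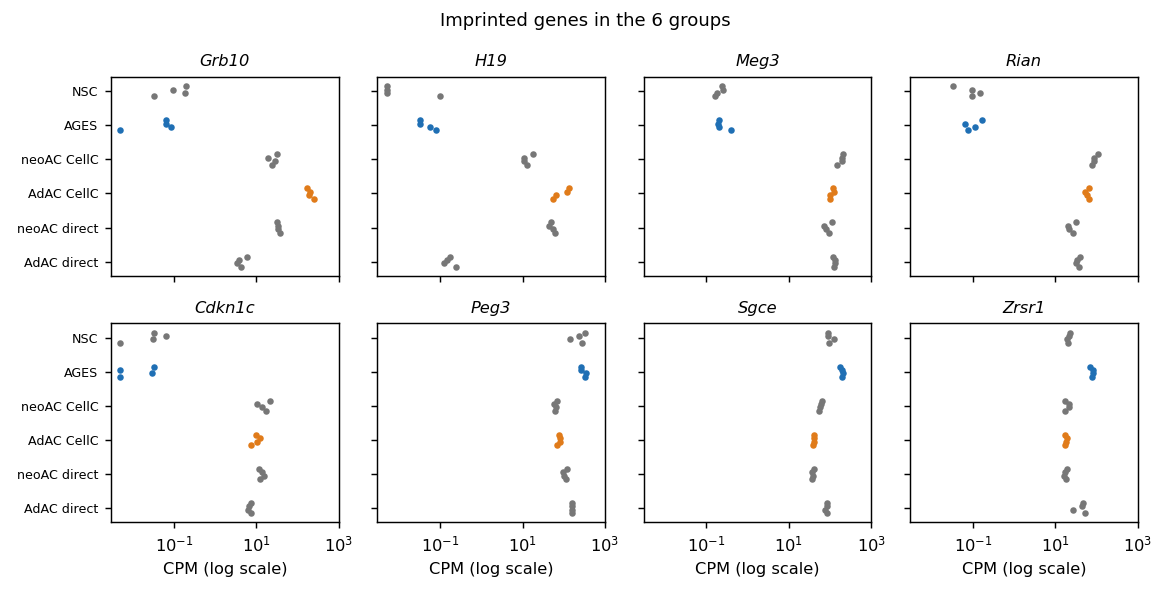
Imprinted genes in every library of the series. The vertical axis is the group, each circle is a library, the horizontal axis is CPM on a log scale with values below 0.005 drawn at 0.005, and each panel is a gene. Grb10, H19, Meg3, Rian and Cdkn1c lie at or near the left edge in NSCs and AGES and higher in the 4 groups of primary cells, except H19 in AdAC direct, and Peg3, Sgce and Zrsr1 are higher in AGES than in AdAC CellC.

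Ranked by log2 fold change among abundant protein-coding genes without overlap, the first for AGES after Hoxa5 was Aplnr, the apelin receptor, at 253, 212, 73.3 and 38.6 CPM in AGES and at 0.276, 0.117, 0.292 and 0.155 CPM in AdAC CellC. For Aplnr the log2 fold change was 9.38 (SE 0.70, edgeR adjusted p = 7.1e-11). Among the next, besides Gfap with its values given above, were Rnase1 (69.3 ± 34.7 against 0.147 ± 0.0457 CPM), Brinp2 (509 ± 114 against 1.31 ± 0.156 CPM), Lctl (108 ± 55 against 0.441 ± 0.173 CPM), Gpr179 (272 ± 88 against 1.31 ± 0.304 CPM) and Myoc (myocilin, 62 ± 10.8 against 0.36 ± 0.176 CPM). Brinp2, an inhibitor of cell-cycle progression in neural cells, had 338 CPM in NSCs and 17.3 CPM in neoAC CellC, and Aplnr had 0.846 and 0.152 CPM. At the other end, besides genes named above, were Sulf1, which edits heparan sulfate (0.124 ± 0.0473 against 263 ± 26.7 CPM), Anxa3 (0.172 ± 0.117 against 350.2 ± 29.4 CPM) and Tagln2 (0.309 ± 0.151 against 498 ± 51.7 CPM).

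By difference of mean CPM, the genes that gained most in AGES after Gfap included Pea15a (7810 ± 1642 against 1282 ± 115 CPM), a death-effector protein of astrocytes, Scd2 (7766 ± 908 against 2253 ± 304 CPM), a fatty acid desaturase, Sparc (8704 ± 1719 against 3774 ± 128 CPM) and Dbi (3859 ± 121 against 394 ± 27.6 CPM), which binds acyl-CoA and GABA-A receptors. The largest losses included Mbp, Thbs1, Igfbp2 and Ccnd1, with values given above, and Tpm1 (188 ± 33 against 1485 ± 167 CPM), Myh9 (619 ± 116 against 1780 ± 114 CPM) and Actb (2004 ± 238 against 3330 ± 138 CPM) of the actin cytoskeleton. Gm42418, which overlaps other genes on the opposite strand, was at 14080, 3358, 2167 and 3095 CPM in the AdAC CellC libraries and at 1308, 1381, 696 and 756 CPM in the AGES libraries. A single adult library held most of its counts, and the log2 fold change of Gm42418 was −2.46 with it and −1.46 without it (AdAC CellC replicate 1).

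For 606 genes the 95% interval of the log2 fold change lay within 0.25 of 0. The most abundant of them were Cfl1 (cofilin, 1002 ± 63.5 and 993 ± 42.7 CPM), Plxnb2, Myl6, Hnrnpk, Rpl23 and Ubb (ubiquitin). For Cfl1 the interval ran from −0.15 to 0.17, and with scaling by library size alone the log2 fold change of Cfl1 was −0.21, that of Plxnb2 −0.17 and that of Rpl23 −0.21. It was −0.31 for Hnrnpk (edgeR adjusted p = 0.000358) and −0.25 for Ubb (edgeR adjusted p = 0.00526), so 5 of these 6 genes passed the test on that scale, and Hnrnpk did so as well with 10 counts required in every library (−0.19, edgeR adjusted p = 0.0081).

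The median log2 fold change per autosome ran from −0.61 to 0.06. It was lowest on chromosome 10, over 863 genes, of which 20.6% were higher and 58.9% lower, and 16 of 17 windows of 50 neighbouring tested genes on this chromosome lay below the median of all genes, against 188 of 367 windows over all chromosomes. The window with the highest median of all, 2.74, was on chromosome 6 from 48860329 to 53978671 and holds the HoxA cluster. The 2 lowest windows adjoin on chromosome 11, from 68503019 to 69784023 (median −1.48, 7 genes higher and 33 lower) and from 69784036 to 70656493 (median −1.36, 4 higher and 42 lower). The first of them holds Trp53, from 69580359 to 69591873, the mitotic kinase gene Aurkb (0.297 ± 0.0108 against 48.7 ± 4.08 CPM) and Polr2a, the largest subunit of RNA polymerase II (99.3 ± 6.06 against 273 ± 9.04 CPM). It also holds Atp1b2, which was higher in AGES. In NSCs against AdAC direct, these windows had medians of −1.17 and −1.08, where that of all genes was −0.28. That pair shares no library with this comparison, but AGES were made from NSCs of the same line. The window on chromosome 7 from 102239123 to 108930178 was lower still in that pair (−2.39), and chromosome 10 had a median of −0.40 there. Neighbouring genes are not independent, and these values carry no test.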

How the data were processed

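RNA-seq was read in 24 libraries, 4 in each of 6 groups, and groups and replicate numbers were taken from the labels. The authors deposited raw counts per gene, made from stranded polyA libraries by alignment with STAR 2.7.3a to GRCm38 and counting of exons with featureCounts on Gencode annotation. Reads with several alignments were kept by the aligner, and the strand and multi-read settings of the counting were not given in the sources used here, so genes that overlap or have near-identical copies are uncertain. Gene positions and types were taken from a later Gencode release of the same build, and promoters from RefSeq.

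From the deposited counts, edgeR 4.0.16 (R 4.3.3, limma 3.58.1) was used with TMM scaling, its filter on low counts, robust quasi-likelihood fits with 1 coefficient per group over all libraries, and Benjamini-Hochberg adjustment over 19691 genes. Genes of chromosomes X and Y and of scaffolds stayed in the fit and were left out of the gene counts and values of the comparison. The library totals, the numbers of genes detected per library and the correlations between libraries include them. The size test of edgeR was set against 2-fold. The study's libraries of a group were separate cultures or isolations, and p-values rest on the spread between these, estimated over the 6 groups together. For AGES this spread does not cover other cell lines. Low-count ratios have exact Poisson 95% intervals, which, like the floor of 3 counts per library, cover counting error only. Counts were simulated for this comparison over 19691 genes, of which 200 were changed. The edgeR test recovered 200 with 10 false calls, the size test 151 with 0 false, and DESeq2 1.42.0 199 with 24 false. In the data 76.2% of the genes tested were called, and the rate of false calls at such a share was not tested.

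The part of the series, its gene lists and the motifs were chosen with earlier results of these data known. Named genes were, in each list, the first 4 members and up to 4 called members with the highest and 4 with the lowest log2 fold change at 5 CPM or more in the higher group. To these were added the 12 protein-coding genes with the highest and the 12 with the lowest log2 fold change among those over 2-fold, without overlap and at 50 CPM or more, the 10 with the largest difference of mean CPM in each direction, and the 6 most abundant whose 95% interval lay within 0.25 of 0. Only part of the genes chosen by this rule are described, and some are not reported here. Alternatives were another scaling (DESeq2 size factors, library size alone), other filters, a fit of the 8 libraries with and without the replicate number as a block, DESeq2's Wald test, a cut at a log2 fold change of 1 and leaving out each library in turn.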

Additional observations from a re-analysis of the deposited data

Results flagged for a closer look

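A library of 4 was set apart when its distance to the nearest of the others took up most of the range of its group (Dixon's test at 95%). This held in 30 of 490 groups examined, 6.12%, where chance gives about 1 in 20. The largest gap in CPM was that of Gm42418, at 14080 CPM in AdAC CellC replicate 1 and 2167 to 3358 CPM in the others.

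In AdAC CellC replicate 1, Agt (2.241 CPM, the others 1.603 to 1.647), Ifih1 (23.15, the others 14.08 to 15.16) and Rnase1 (0.2149, the others 0.1166 to 0.1328) were high, and Cx3cl1 (288.5 CPM), Hepacam (67.29), Peg3 (68.48), Scd2 (1800) and Serpine2 (164.3) were low. In AdAC CellC replicate 2, Bmp6 (104.8 CPM) was high, and Col1a1 (595.4, the others 866.3 to 918.4), Cxcl1 (21.89) and Tgfb2 (48.71) were low. In AdAC CellC replicate 3 the epithelial genes Cdh1 (56.82 CPM, the others 21.18 to 23.74) and Krt8 (82.74, the others 36.12 to 41.41) were high. In AdAC CellC replicate 4, Slc6a11 (14.74 CPM) was high and Cdkn1a (619.5) and Lama2 (37.48) were low.

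In AGES replicate 1, Cdk1 (8.154 CPM), Meg3 (0.3901), mt-Nd4 (1797) and mt-Nd5 (3652) were high. In AGES replicate 2, Axl (333.9 CPM) and Ctnnb1 (1813) were low. In AGES replicate 3, Masp1 (126.9 CPM, the others 47.48 to 53.75), Myh9 (791.3) and Tpm1 (237.3) were high and Hoxa10 (6.088) was low. In AGES replicate 4, Cdh4 (138.3 CPM) and Ttr (0.757) were low.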

How the results depend on the processing

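The direction of every gene called in the comparison that stayed called was the same under all alternatives, with 0 genes changing sign among those called by both. The number of changed genes, 14430, was 14461 with DESeq2 size factors, 14536 with library size alone, 15657 without a filter, 13692 in a fit of the 8 libraries, 14512 with DESeq2 and 14181 to 14290 with a library left out. It was 9042 when each library had to hold 10 counts and 8825 with a further cut at a log2 fold change of 1. The number past 2-fold, 7422, ran from 7324 to 7432 with a library left out and was 2734 with the filter of 10 counts. This filter removes by construction every gene that is low in any of the 24 libraries. That includes the genes at the floor in AGES or AdAC CellC and genes low only in the other groups. With library size alone 31.8% of the calls were higher and 68.2% lower, against 40.5% and 59.5%. The median of all genes, −0.23, was −0.188 with DESeq2 size factors, −0.447 with library size alone, −0.00684 without a filter, −0.0813 with 10 counts, −0.0764 with the 8 libraries, −0.0814 with the 8 libraries and the block, and −0.246 to −0.208 with a library left out. Among the named genes tested, 393 differed between neoAC CellC and AdAC CellC, 378 to 395 with a library left out and 217 with 10 counts, and 290 between AGES and NSCs, 283 to 293 with a library left out.

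The groups share replicate numbers 1 to 4. Same-numbered libraries deviated from their group means with correlations of −0.0246, −0.0205, 0.0165 and −0.0184, and no library correlated best with its own number. These values show no sign of pairing by number, and a shared date or handling was not tested. With the replicate number as a block the 8 libraries gave 13330 changed genes and 6621 past 2-fold, against 13692 and 6701 without the block. With the block Hmox1 lost its call (edgeR adjusted p = 0.0725), and mt-Nd1 (0.44, edgeR adjusted p = 0.00635) and Itpr1 (0.28, edgeR adjusted p = 0.00662) passed.

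With 10 counts in every library, the median of a list less that of all genes turned positive for patterning factors other than Hox (0.413), pan-reactive genes (1.29), laminins and integrins (0.0686), brain matrix (0.222), matrix proteases (0.0283), cadherins (0.223), hedgehog (0.486), Wnt (0.243), imprinted genes (0.874) and markers of microglia (0.895), neurons (1.23), oligodendrocyte precursors (0.17) and fibroblasts (0.128), and negative for pluripotency genes (−1.04, and −1.48 without a filter). With library size alone Cfl1 (−0.209), Plxnb2 (−0.167), Rpl23 (−0.213), Rpl7 (−0.00218) and Vcl (−0.00557) were below 0, where the test of Rpl7 and Vcl was not passed, and Hnrnpk (−0.313) and Ubb (−0.246) passed it. Depth limits the genes at the floor of 3 counts, for which ratios rest on 0 to 11 counts in a group.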
